A study of Mus musculus with 9 samples.

Results

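The comparison set the livers of mice given metformin on a high fat diet against those of mice on chow. It used 6 of the 9 arrays of the series, namely the 3 pools titled Metformin and the 3 titled Control, and took every probe that the extraction software marked well above background on at least 3 of these 6 arrays. All mice were C57BL/6J males, an inbred strain that gains fat on energy-dense diets, obtained at 3 weeks of age and sampled at 20 weeks. Control mice ate chow for 17 weeks, and no gavage is recorded for them. Metformin mice ate, for 17 weeks, a diet in which fat gave 45% of the energy, and received metformin by gavage at 3 mg/kg per day in the last 5 weeks, from 15 weeks of age. The remaining 3 arrays held high fat diet pools given saline in the same weeks. Each array held Cy3-labelled RNA of 1 pool of 4 livers, so that 24 mice stand behind the comparison, and a pool hides the spread between its mice. The groups differ in diet, gavage and drug at once, and their shares in any difference cannot be told apart from these 6 pools.

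Metformin is an oral glucose-lowering drug that lowers hepatic glucose output. It inhibits respiratory complex I and raises the activity of AMP-activated protein kinase, a sensor of cellular energy that restrains lipid synthesis. Excess dietary fat fills hepatocytes with triglyceride and blunts their response to insulin. The array was designed for long noncoding RNAs as well as mRNAs. Long noncoding RNAs are transcripts without a long reading frame, some of which control the genes beside them, host small RNAs or keep imprinted loci silent, while most have no known function.

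A start-site window was at hand for 18 of the 29 named transcripts that passed the test below, 9 higher and 9 lower. They are RefSeq windows of 300 bases, 250 before and 50 after the annotated start, on build GRCm38.p6. The 4 shown belong to a pair of transcripts that rose and a pair that fell, and were picked because the largest named changes or the best known neighbouring genes lie there. Each is written in the direction of transcription, with capitals on the GC box (GGGCGG) and the CCAAT box (CCAAT), searched on both strands.
Chaserr (rose; chr7:73558346-73558645, minus strand): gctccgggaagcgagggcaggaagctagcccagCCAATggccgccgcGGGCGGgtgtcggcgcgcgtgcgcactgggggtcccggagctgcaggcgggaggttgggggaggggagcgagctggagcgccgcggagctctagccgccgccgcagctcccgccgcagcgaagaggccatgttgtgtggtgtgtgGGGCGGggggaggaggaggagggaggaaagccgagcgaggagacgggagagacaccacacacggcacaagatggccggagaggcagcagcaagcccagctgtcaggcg
Gm39094 (rose; chr7:129657847-129658146, plus strand, the first of 2 annotated windows): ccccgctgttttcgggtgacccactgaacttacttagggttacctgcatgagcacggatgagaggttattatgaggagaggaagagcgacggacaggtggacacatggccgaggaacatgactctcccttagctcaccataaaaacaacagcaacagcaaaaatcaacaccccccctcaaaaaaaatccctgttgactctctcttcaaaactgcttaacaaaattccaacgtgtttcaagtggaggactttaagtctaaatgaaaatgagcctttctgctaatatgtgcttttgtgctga
Gm35393 (fell; chr1:63436362-63436661, minus strand): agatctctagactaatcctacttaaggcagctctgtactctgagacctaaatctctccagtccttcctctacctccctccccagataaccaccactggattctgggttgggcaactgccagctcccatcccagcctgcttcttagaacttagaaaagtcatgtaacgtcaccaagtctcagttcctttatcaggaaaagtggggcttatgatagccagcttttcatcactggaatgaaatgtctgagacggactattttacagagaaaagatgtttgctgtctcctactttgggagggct
Gm32342 (fell; chr19:37697497-37697796, minus strand): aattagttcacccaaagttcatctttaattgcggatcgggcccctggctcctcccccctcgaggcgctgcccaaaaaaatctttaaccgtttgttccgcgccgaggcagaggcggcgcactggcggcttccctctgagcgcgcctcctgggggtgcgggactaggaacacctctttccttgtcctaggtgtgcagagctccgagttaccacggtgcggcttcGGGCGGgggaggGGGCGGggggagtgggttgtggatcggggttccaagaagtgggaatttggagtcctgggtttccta
The Chaserr window held 30 CpG and was 72.3% G or C, and the Gm32342 window held 21 CpG at 61.0%, against medians of 7 CpG and 52.7% over all 32851 windows. A GC box lay in 35.7% of all windows, in 1 of the 9 of transcripts that rose (Chaserr) and in 1 of the 9 of transcripts that fell (Gm32342). A CCAAT box lay in 37.4% of all windows, in 5 of 9 of the rises and in 2 of 9 of the falls. A TATA box (TATAAA) lay in 13.6% of all windows, in 1 of 9 of the rises and in 3 of 9 of the falls. The E-box CACGTG and the cyclic AMP response element TGACGTCA, held by 7.15% and 1.79% of all windows, were in none of the 18. These matches describe letters in the windows only.

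Between 53.0% and 63.5% of the 175906 spots of an array were well above background over the 9 arrays, and no spot was saturated. Control replicate 1 stood apart. On 580 tested probes it was more than 2 log2 units above the median of the other arrays, against 11 to 75 probes for each other array, and it correlated with the other controls at 0.973 and 0.975, where those correlated at 0.990 and the metformin pools at 0.987 to 0.989. The controls shared slide 1 with high fat diet replicate 1, metformin replicates 1 and 2 shared slide 2 with high fat diet replicates 2 and 3, and metformin replicate 3 was on slide 3. No slide held both compared groups, so slide and group cannot be told apart, and no within-slide value exists for this comparison. None of the markers listed for 12 cell types, hepatocytes included, had a named probe, so the tissue label could not be set against its markers. In these whole-liver pools, fewer cells of a type and less RNA per cell cannot be told apart.

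The metformin pools differed from the chow pools at 485 of 60074 tested probes (0.807%), of which 200 were higher (0.333%) and 285 lower (0.474%). All levels given here are log2 signals less the 75th percentile of their own array, and a probe passed when limma's adjusted p (Benjamini-Hochberg over all tested probes) was under 0.05. The probes that fell moved further, with a median difference of -1.66, than those that rose, with a median of 0.99. The pools of the groups did not overlap at any of the 485, and the same held at 24.9% of all tested probes. At 116 of the 285 lower probes no metformin pool was above background, and at 21 of the 200 higher probes no control pool was. Such probes met the filter through the pools of the brighter group alone, so meeting it adds no support to their differences. Among the 255 that passed with all 6 arrays above background, the balance was the other way, with 146 higher and 109 lower. When only probes above background on all 6 arrays were tested, 550 passed, 260 higher and 290 lower, so that balance was not seen there. Over all tested probes the median difference was -0.003.

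**Figure D1:**
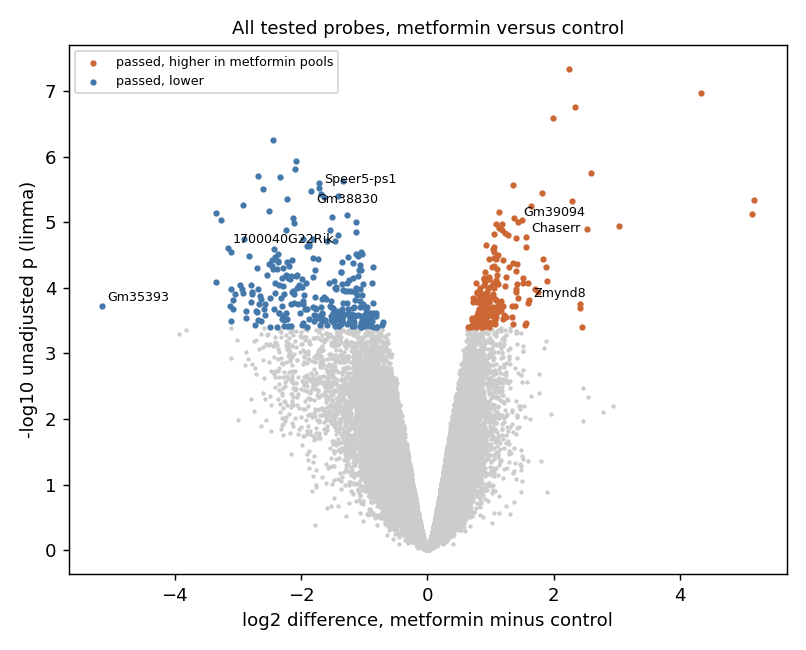
Log2 difference (metformin minus control, horizontal) against the -log10 of limma's unadjusted p (vertical) for all 60074 tested probes, 1 point each. The 200 probes that passed higher are orange, the 285 that passed lower are blue, and 7 named transcripts are labelled. The blue cloud reaches farther out than most of the orange one, and 3 probes rose by more than 4 log2 units.

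How many probes passed depended on single pools. Without control replicate 1, the pool that stood apart, 3131 probes passed (908 higher, 2223 lower), and without control replicate 2 only 7 did. Without control replicate 3 there were 134, without metformin replicates 1, 2 and 3 there were 136, 63 and 7, and without high fat diet replicate 2 there were 200. Of the 285 lower probes, control replicate 1 was the highest control at 182, replicate 2 at 49 and replicate 3 at 54. With slide as a fixed block, which joins the groups through the high fat diet pools on slides 1 and 2, no probe passed and 2550 had an unadjusted limma p under 0.05, against 11557 (19.2% of those tested; 8.81% higher, 10.4% lower) as reported. A probe tested alone by an exact permutation of 3 pools against 3 cannot go below a two-sided p of 0.1, and limma passes that limit by sharing its estimate of the spread among probes.

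**Figure D2:**
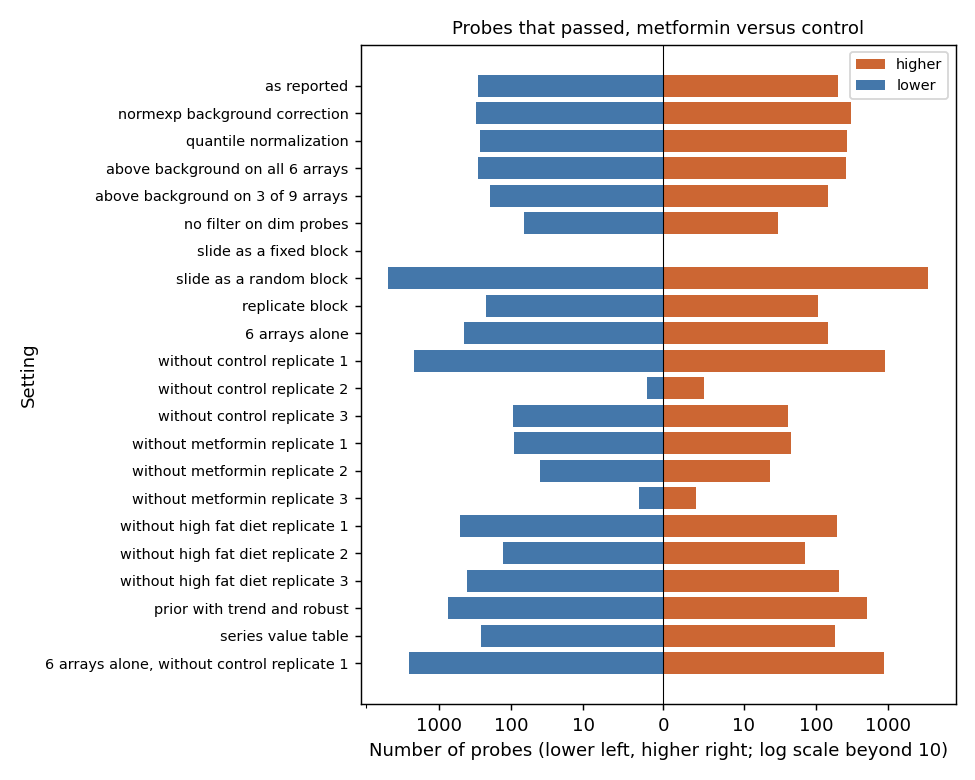
Number of probes that passed between metformin and control as reported and under each alternative, with lower probes to the left and higher probes to the right (log scale beyond 10 probes). The bars shrink to 7 probes in all without control replicate 2 or metformin replicate 3, vanish with slide as a fixed block, and are longest with slide as a random block, at 8636. The random block cannot separate slide from group, as no slide held both.

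Names were at hand for a small share of the probes only. Of 2605 named genes tested, 29 passed (1.11%), 14 higher and 15 lower. They were 23 long noncoding RNAs out of 2050 tested (1.12%; 10 higher, 13 lower), 3 of 455 protein-coding genes (0.659%; all higher) and 3 of 90 pseudogenes (3.33%; 1 higher, 2 lower). Of the long noncoding RNAs, 7 of 718 that overlap a coding gene passed (0.975%), 10 of 877 within 50 kb of one (1.14%) and 6 of 455 farther away (1.32%). The pools of the groups did not overlap at 28.4% of the named genes (12.3% higher, 16.2% lower), and 22.4% of them had an unadjusted limma p under 0.05 (8.71% higher, 13.7% lower). None of the 29 passed without control replicate 2 (adjusted p 0.056 to 0.135) or without metformin replicate 3 (0.0561 to 0.178), and all 29 passed without control replicate 1. Leaving out any 1 pool turned no direction and moved none of the 29 differences by more than 1.5 times. With slide as a fixed block none of the 29 passed (adjusted p 0.557 to 1.0), each kept its sign, and 4 shrank by more than 1.5 times: Gm35393, Zmynd8 (0.74 against 1.59), 4931422A03Rik (0.49 against 0.88) and 2610005L07Rik (0.61 against 0.93). Under normexp background correction, an alternative that treats dim signals differently, 20 of the 29 differences shrank by more than 1.5 times, and 4 of those 20 were among the 13 transcripts above background on all 6 arrays.

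**Figure D3:**
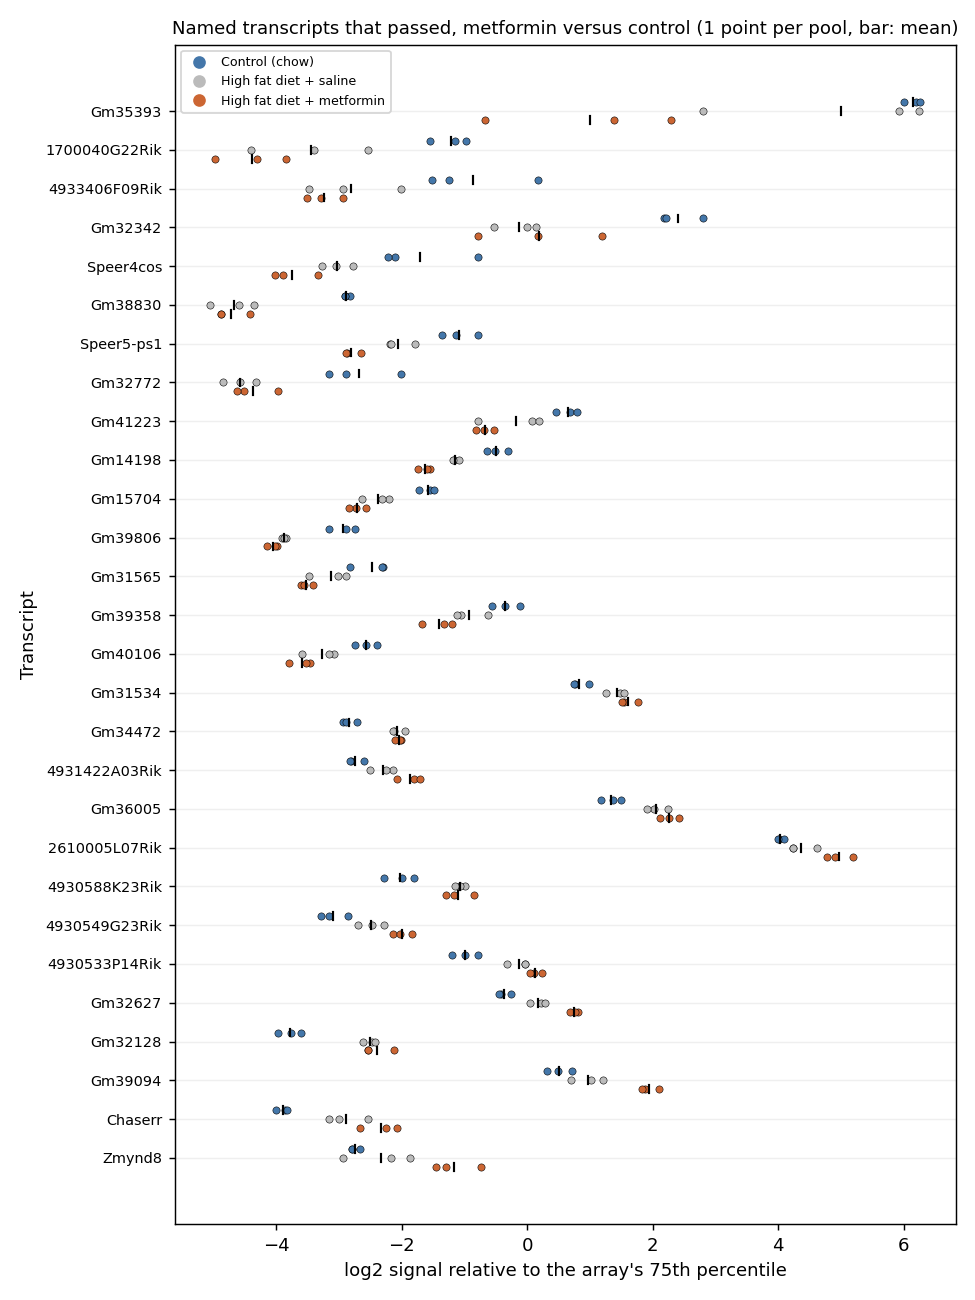
Log2 signal less that array's 75th percentile (horizontal) for 28 of the 29 named transcripts that passed (vertical, from the largest fall to the largest rise), 1 point per pool and a bar at each group's mean. Blue (chow) and orange (metformin) points do not overlap in any row, and grey points show the high fat diet pools given saline.

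Among the transcripts that rose was Chaserr, a conserved noncoding RNA transcribed next to Chd2 and known to hold down the expression of that chromatin remodeller. Its level was -3.86, -4.00 and -3.82 in the control pools, none of them above background, and -2.08, -2.25 and -2.66 in the metformin pools, all above background. Where every array of a group was below background, a change is given as a bound, in which the bright group's mean is set against, per dim array, the higher of the probe's own signal and the lowest signal well above background. By this rule Chaserr was 2.95-fold higher in the metformin pools (adjusted p = 0.0193). Its own control signals were the higher ones on each array, so this value equals the plain fold change and is no lower limit. The bounds hold for the background handling reported here only: under normexp the difference of Chaserr was 0.54, against 1.56 as reported. Chaserr met the filter through the metformin pools alone. No named probe of Chd2 was among those tested here. Zmynd8, a chromatin reader, was represented by 1 RIKEN cDNA clone, which may measure another transcript of the locus than the main mRNA. The clone read -2.66, -2.79 and -2.79 in the control pools, of which 2 were above background, and -1.46, -0.73 and -1.29 in the metformin pools, a rise of 1.59 (SE 0.27, adjusted p = 0.0404).

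Several predicted noncoding RNAs near coding genes rose with every one of the 6 pools above background. Gm39094, within 50 kb of the trafficking gene Wdr11, read 0.31, 0.49 and 0.71 in the control pools and 1.88, 1.83 and 2.10 in the metformin pools, a rise of 1.43 (SE 0.18, adjusted p = 0.0161). Gm32627, near Trp53i11 and Tspan18, read -0.42, -0.26 and -0.45 against 0.81, 0.77 and 0.68, a rise of 1.13 (SE 0.13, adjusted p = 0.0156). In both, every metformin pool lay well above the highest control pool, with the metformin pools close together. Gm36005, near Gabrp and Ranbp17, rose by 0.92 (SE 0.15, adjusted p = 0.0383). The pseudogene 2610005L07Rik read 4.01, 4.10 and 3.99 in the control pools and 4.78, 4.91 and 5.20 in the metformin pools, a rise of 0.93 (SE 0.16, adjusted p = 0.0429). The other rises with all 6 pools above background were 4930533P14Rik (1.11), 4930588K23Rik (0.93, near Gp1bb, Septin5, Tbx1 and Gnb1l), Gm31534 (0.77) and 4931422A03Rik (0.88). The last is annotated as protein-coding, and 4930533P14Rik and Gm31534 had no coding gene overlapping them or within 50 kb. A second probe of Gm31534 differed by 0.27 and did not pass (adjusted p = 0.449).

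The rest of the rises involved dim controls. Gm32128, near Ppp2r5a, a regulatory subunit gene of a serine/threonine phosphatase, read -3.97, -3.60 and -3.76 in the control pools, none above background. It read -2.54, -2.54 and -2.12 in the metformin pools, through which alone it met the filter. The rise was 2.59-fold by the bound, close to the plain 2.6-fold (adjusted p = 0.0160). It also passed between the high fat diet pools and the controls, which are the same control pools, by 1.27 (adjusted p = 0.0387). 4930549G23Rik, which overlaps the nucleoporin gene Seh1l, rose by 1.1 with 1 control pool above background, and Gm34472, near the adaptor protein gene Ywhaz, rose by 0.79 with 2.

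The largest fall of a named transcript was that of Gm35393, a predicted noncoding RNA within 50 kb of Adam23, a cell adhesion gene. It was bright in all control pools, at 6.00, 6.2 and 6.26, and read 1.38, 2.30 and -0.67 in the metformin pools, all above background. The difference was -5.15 (SE 0.90, adjusted p = 0.0424), and the metformin pools were widely spread. With slide as a fixed block it was -2.45 (adjusted p = 1.0). In the high fat diet pools it read 6.24 on slide 1 and 5.93 and 2.81 on slide 2, so that pools of 1 slide lay far apart. A second probe on the array for this RNA did not reach the filter on dim probes.

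Gm32342 overlaps Exoc6, an exocyst subunit gene, and Cyp26c1, and lies within 50 kb of Cyp26a1, both of which encode cytochromes that degrade retinoic acid. It read 2.18, 2.21 and 2.81 in the control pools and 1.2, 0.17 and -0.78 in the metformin pools, a difference of -2.2 (SE 0.42, adjusted p = 0.0496). The metformin pools were the more scattered, and a second probe on the array for Gm32342 was not among those tested. Gm41223, which overlaps the formin gene Diaph3, read 0.68, 0.79 and 0.46 against -0.68, -0.53 and -0.82, a difference of -1.32 (SE 0.24, adjusted p = 0.0458). Gm14198, which overlaps the zinc finger gene Zfp341, read -0.52, -0.31 and -0.64 against -1.74, -1.54 and -1.59, a difference of -1.13 (SE 0.14, adjusted p = 0.0161). The pools of each group lay close together for both. A second probe of Gm14198 differed by -0.41 and did not pass (adjusted p = 0.434). Gm39358, which overlaps Iqch, fell by 1.05 (adjusted p = 0.0479), the last of the falls with all 6 pools above background.

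Transcripts of the rodent Speer family, testis-expressed genes that exist in many similar copies, gave a pair of the falls, and a probe may read several copies. Speer5-ps1, a pseudogene near the autophagy gene Atg5, read -0.78, -1.14 and -1.36 in the control pools and -2.87, -2.89 and -2.65 in the metformin pools, of which 2 were above background. The difference was -1.71 (SE 0.18, adjusted p = 0.0123). Speer4cos read -0.78, -2.11 and -2.21 against -3.34, -4.01 and -3.89, a difference of -2.05 (SE 0.35, adjusted p = 0.0409), with 1 metformin pool above background. Control replicate 1 was the highest pool of both, as it was of 4933406F09Rik, at 0.18, -1.25 and -1.51 against -3.28, -2.94 and -3.50 (difference -2.38, SE 0.46, adjusted p = 0.0497). Without control replicate 1 the differences were -1.56, -1.59 and -1.86, and all 3 passed, as did all 29 named transcripts. Of the 20 alternatives fitted for each, Speer5-ps1 passed under 17, Speer4cos under 10 and 4933406F09Rik under 6.

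At 5 named transcripts no metformin pool was above background, and they met the filter through the control pools alone. The X-linked 1700040G22Rik read -0.97, -1.15 and -1.54 in the control pools and -4.98, -3.85 and -4.31 in the metformin pools and was at least 7.89-fold lower (adjusted p = 0.0229). Under normexp its difference was -0.92, against -3.16 as reported. Gm38830, near Rnf103 and Chmp3, read -2.83, -2.91 and -2.91 against -4.42, -4.88 and -4.88 and was at least 2.42-fold lower (adjusted p = 0.0123). It also differed by -1.78 between the high fat diet pools and the same controls (adjusted p = 0.0247). Gm32772 and Gm39806 were at least 2.50-fold and 2.02-fold lower. Gm40106 (near Tent5c and Man1a2) was 2.04-fold lower, where the bound equals the plain fold change. Under normexp the differences of Gm38830 and Gm39806 were -0.35 and -0.19, against -1.84 and -1.12 as reported, and neither passed. Gm15704, which overlaps Rassf8, and Gm31565 fell by 1.13 and 1.05, with 2 and 1 metformin pools above background.

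Most of the 485 probes that passed, 456 of them, carry an identifier without a gene name in the tables used here, and the 4 smallest adjusted p-values lay among them. RIKEN clone F430001A17 read 0.40, 0.09 and 0.00 in the control pools, 0.39, 0.60 and 0.70 in the high fat diet pools and 2.35, 2.38 and 2.50 in the metformin pools. The rise over control was 2.25 (SE 0.15, adjusted p = 0.00276), and the metformin pools were close together. RIKEN clone E030029E13 read -3.96, -4.45 and -4.78 in the control pools, none above background, and -0.03, -0.46 and 0.31 in the metformin pools, and was at least 18.4-fold higher (adjusted p = 0.0032). The NONCODE transcript NONMMUT057558 read 1.26, 1.08 and 1.12 against 3.12, 3.03 and 3.27, a rise of 1.99 (SE 0.16, adjusted p = 0.00395). The catalogue probe A_55_P2138343 read 3.85, 4.18 and 3.80 against 6.28, 6.2 and 6.35, a rise of 2.34 (SE 0.18, adjusted p = 0.0035). These 4 passed under every alternative that could be fitted, each left-out pool included, other than slide as a fixed block, where their rises were 1.94, 3.89, 1.64 and 1.82 (adjusted p 0.695, 0.695, 0.889 and 0.837). The rise of E030029E13 was 2.03 under normexp, against 4.34 as reported.

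The first 3 of these also passed between the metformin and the high fat diet pools, a contrast in which 4 of 60074 probes did (0.00666%) and which shares the metformin pools. E030029E13 read -4.05, -4.36 and -3.19 in the high fat diet pools, and its metformin level lay 3.80 above them (SE 0.32, adjusted p = 0.011). F430001A17 lay 1.85 above (SE 0.15, adjusted p = 0.011) and NONMMUT057558 1.64 above (SE 0.16, adjusted p = 0.0301). High fat diet replicates 2 and 3 shared slide 2 with metformin replicates 1 and 2, and for these 3 probes the slide 2 pools separated by group, for E030029E13 at -4.36 and -3.19 against -0.03 and -0.46. The probes were picked by this same contrast, so the separation adds no independent support, and it does not bear on metformin against chow. The fourth, catalogue probe A_55_P2071646, was high in the high fat diet pools, at 0.72, 1.02 and 0.69, against -0.29, -0.10 and -0.25 in the controls and -0.66, -0.57 and -0.50 with metformin. Its difference between metformin and control was -0.36 and did not pass (adjusted p = 0.205). These 4, XR_399773 and A_55_P1976037 below fall outside the rule for named probes, F430001A17 excepted, and were chosen after their values were seen.

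The largest rises among unnamed probes reached far beyond those of the named genes. The RefSeq prediction XR_399773 read -3.24, -3.75 and -3.62 in the control pools, of which 1 was above background, and 1.75, 0.59 and 2.57 in the metformin pools, a rise of 5.17 (SE 0.58, adjusted p = 0.0123). A_55_P2144771 read -1.63, -0.97 and -1.77 against 3.92, 3.69 and 3.44, a rise of 5.14 (SE 0.61, adjusted p = 0.0156). Its high fat diet pools lay at -0.80, 0.56 and 2.32, spread between the groups. A_55_P2084022 rose by 3.04 (adjusted p = 0.0166). NONMMUT047819, bright on every array, read 6.64, 6.27 and 6.33 against 8.90, 8.90 and 9.21, a rise of 2.59 (SE 0.26, adjusted p = 0.0122). With slide as a fixed block the rises of XR_399773, A_55_P2144771 and A_55_P2084022 were 3.09, 3.02 and 1.58, and under normexp that of XR_399773 was 3.11.

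Among the unnamed falls with all 6 pools above background, A_55_P1985236 read 1.5, 0.22 and -0.60 in the control pools and -3.16, -2.42 and -2.52 in the metformin pools, a difference of -3.08 (SE 0.52, adjusted p = 0.0398). Control replicate 1 was its highest pool, and the difference without that pool was -2.51. The NONCODE transcript NONMMUT034624 differed by -2.80, the Ensembl transcript ENSMUST00000188980 by -2.71, and A_55_P2042171 and A_55_P2037783 by -2.54 and -2.45. NONMMUT034624 read 1.15, 1.00 and 1.56 against -0.29, -1.66 and -2.72, so its metformin pools were the more scattered. A_55_P1976037, with no metformin pool above background, was at least 7.78-fold lower (adjusted p = 0.0156), and its difference was -1.06 under normexp, against -3.35 as reported. Under normexp A_55_P1985236, ENSMUST00000188980 and A_55_P2042171 differed by -1.81, -1.63 and -1.30. F430001A17 and A_55_P2138343 kept their call with any 1 pool left out. The other rises and falls of these paragraphs, the NONCODE transcript NONMMUT057558 and clone E030029E13 apart, lost it without control replicate 2 and without metformin replicate 3.

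**Figure D4:**
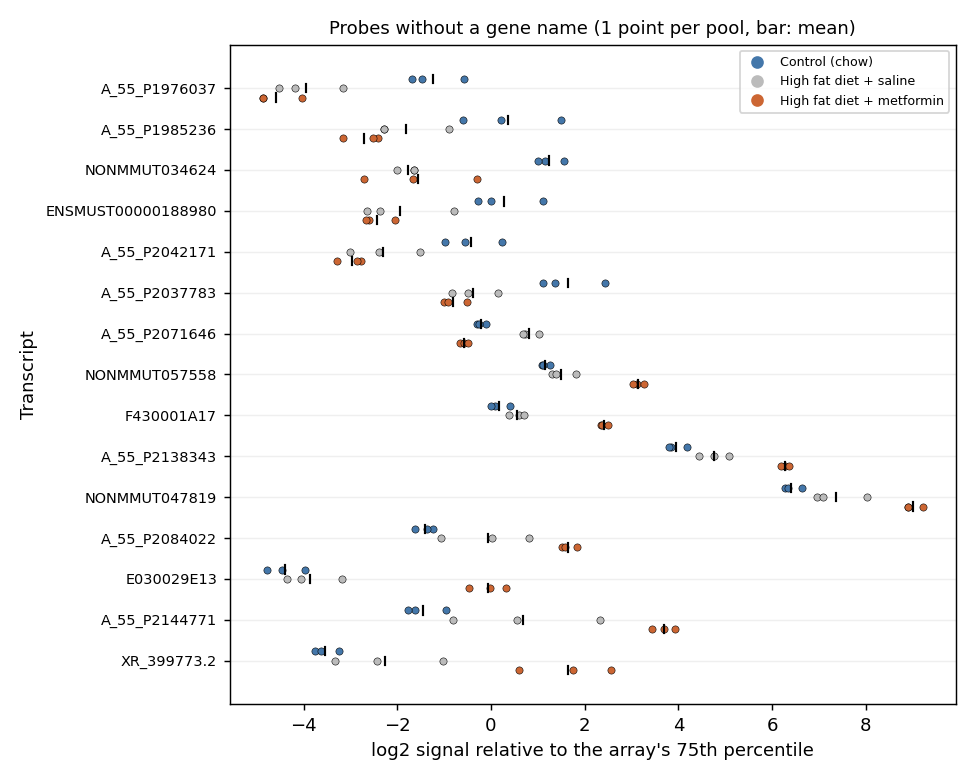
Log2 signal less that array's 75th percentile (horizontal) for 15 probes without a gene name (vertical), 1 point per pool and a bar at each group's mean. Chow (blue) and metformin (orange) points are apart in every row. In E030029E13, F430001A17 and NONMMUT057558 the high fat diet pools (grey) lie nearer to the chow pools than to the metformin pools, though all above chow in NONMMUT057558. In A_55_P2071646 the high fat diet pools lie above both.

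By collection, 131 of 16117 NONCODE probes passed (0.813%; 67 higher, 64 lower), 61 of 9080 RIKEN clones (0.672%; 38 higher, 23 lower) and 218 of 28424 probes of the Agilent catalogue (0.767%; 64 higher, 154 lower). RefSeq predictions passed at 58 of 5432 (1.07%; 24 higher, 34 lower), curated RefSeq transcripts at 5 of 440 (1.14%) and Ensembl transcripts at 10 of 438 (2.28%; 3 higher, 7 lower). Of the probes for ultraconserved regions, genome segments identical between distant mammals, 2 of 134 passed (1.49%), 1 in each direction. No test between collections was made, and the counts are small in the last 3.

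Long noncoding RNAs with a known function mostly did not pass. Of 40 listed, 15 were tested and 1 passed, Chaserr (6.67%, against 1.11% of named genes). The median difference of the 15 was -0.131, with 5 higher and 10 lower, against -0.026 over all named genes. Norad, which sequesters Pumilio proteins and guards genome stability, read 3.40, 3.59 and 3.64 against 3.44, 3.35 and 3.38 (difference -0.15, adjusted p = 0.585). Hnf4aos, the antisense partner of the hepatocyte master regulator Hnf4a, read 2.09, 2.34 and 2.37 against 2.08, 2.17 and 2.07, a difference of -0.16 (SE 0.18, adjusted p = 0.656). For both the groups overlapped. The labels do not say whether probes distinguish strands, and the probe for an antisense RNA is read here as its identifier names it.

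Imprinted noncoding RNAs are expressed from 1 parental copy and often keep neighbouring genes silent. Of 21 listed, 7 were tested and none passed in limma, 3 had an unadjusted p under 0.05, all lower (as did 13.7% of named genes, on the lower side), and the median difference was -0.444 (5 lower, 2 higher). Rian, which hosts small nucleolar RNAs in the Dlk1-Dio3 cluster, read -0.75, -2.12 and -0.90 in the control pools and -2.42, -3.65 and -3.72 in the metformin pools, of which 1 was above background. Its groups did not overlap, and the difference of -2.01 (SE 0.40) missed the threshold at an adjusted p of 0.0532. Meg3, from the same maternally expressed cluster, read -0.26, -1.05 and -0.02 against -1.0, -1.84 and -1.74, and its groups overlapped (difference -1.08, SE 0.29, adjusted p = 0.0947). In the high fat diet pools Rian lay at -3.57, -3.46 and -3.51 and Meg3 at -1.85, -1.92 and -2.06, both at least as low as the metformin means. Kcnq1ot1, which silences genes of an imprinted cluster from the paternal copy, differed by -0.83 (adjusted p = 0.214). Airn, which silences Igf2r, differed by -0.30 (adjusted p = 0.485), while a second probe of it differed by 0.33 (adjusted p = 0.324). Without control replicate 1 the list's median was -0.80, in the full fit and in the 6 arrays alone.

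Small nucleolar RNA host genes carry in their introns the guides of ribosomal RNA modification. Of 22 listed, 8 were tested, none passed in limma, 3 had an unadjusted p under 0.05, all lower (13.7% of named genes), and the median difference was -0.335 (7 lower, 1 higher), or -0.72 with slide as a fixed block. Snhg16 read -1.92, -1.34 and -1.54 against -2.30, -2.94 and -2.0 and differed by -0.81 (SE 0.27, adjusted p = 0.152). Snhg7 differed by -0.66 (adjusted p = 0.2). Snhg9, bright on every array, read 7.04, 7.17 and 6.87 against 7.12, 7.17 and 7.30, and its groups overlapped. Rian is in this list, the imprinted list, the list of known functions and the next one, and Meg3 is in 3 of them, so the lists are not independent.

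Of 27 transcripts listed with microRNA hosts, 8 were tested, none passed in limma, 3 had an unadjusted p under 0.05, all lower (13.7% of named genes), and the median difference was -0.345 (7 lower, 1 higher). Mirt2, listed there although it hosts no microRNA, read -2.19, -1.90 and -1.21 against -3.21, -2.88 and -3.80. Its difference of -1.53 (SE 0.30) missed the threshold at an adjusted p of 0.0522. Mir22hg, the host of a conserved microRNA, was the 1 member on the higher side, at 3.64, 3.77 and 4.09 against 4.05, 3.99 and 4.32 (difference 0.29, adjusted p = 0.439). Second probes of Dleu2 and Mirt1 differed by 0.18 and 0.11 (adjusted p = 0.766 and 0.825). The brightest probes, which stood for these genes, differed by -0.20 and -0.43. The directions over these lists are a description of overlapping members in 6 pools, with 1 probe per gene.

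**Figure D5:**
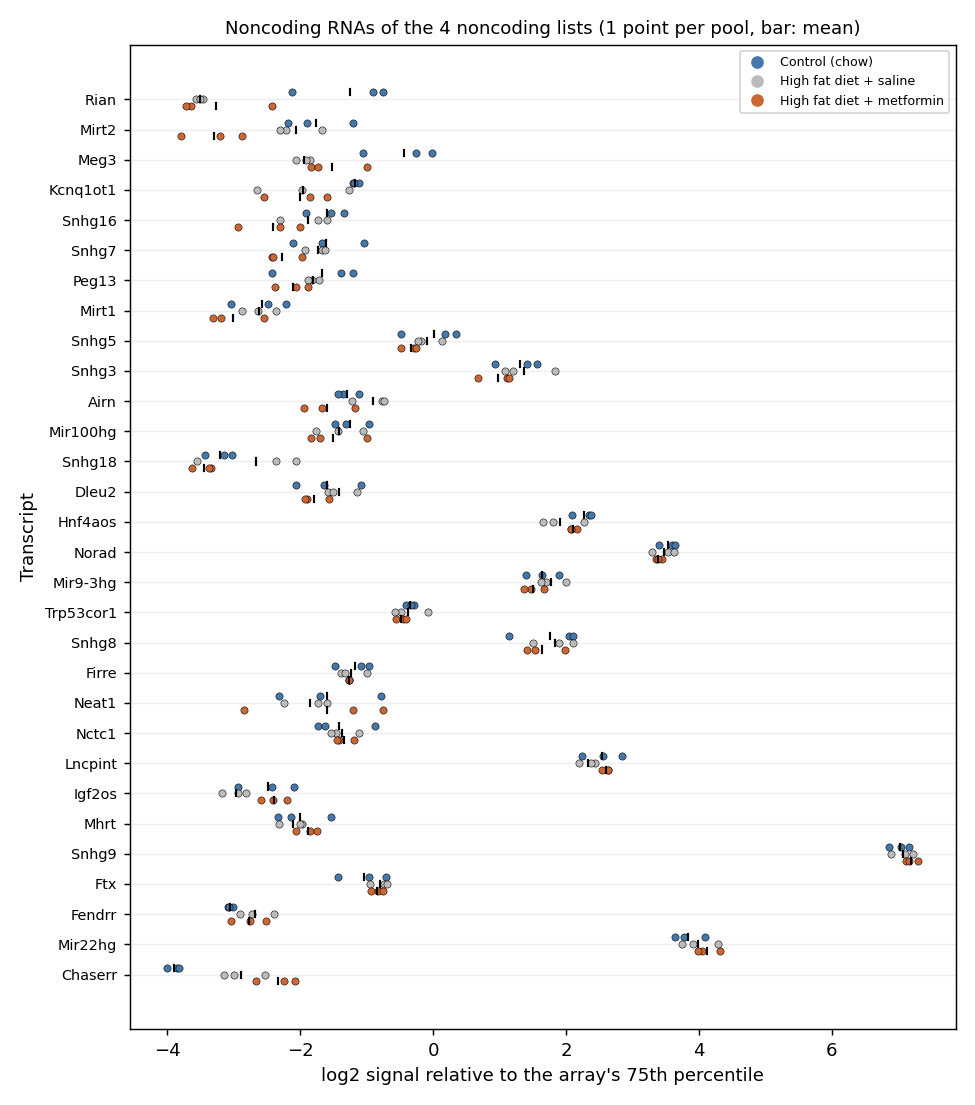
Log2 signal less that array's 75th percentile (horizontal) for the 30 tested transcripts of the noncoding lists (vertical, ordered by the difference between metformin and control), 1 point per pool and a bar at each group's mean. Chaserr, in the bottom row, is the 1 transcript that passed, and Rian and Mirt2, in the top rows, missed the threshold at adjusted p of 0.0532 and 0.0522.

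Few protein-coding genes of liver metabolism could be named, since most mRNA probes carry a catalogue identifier. Those that could were read through RIKEN clones, and of the 9 tested none passed in limma, while 3, Igf1 and Cry2 among them, had an unadjusted p under 0.05, as did 22.4% of named genes. Igf1, the growth factor secreted by hepatocytes, read 3.06, 2.96 and 3.27 against 2.85, 2.68 and 1.86 (difference -0.63, SE 0.26, adjusted p = 0.227). Its groups did not overlap, as for 28.4% of named genes. Cry2, a repressor of the circadian clock, read 1.08, 1.18 and 0.96 against 0.73, 0.57 and 0.73 (difference -0.40, SE 0.15, adjusted p = 0.192). Cxcl14, a chemokine, differed by 0.53 (adjusted p = 0.448), and Fads2, a desaturase of polyunsaturated fatty acids, by 0.23 (adjusted p = 0.48).

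For complex I, the enzyme that metformin inhibits, 2 of 40 listed genes were tested. Ndufa6 read 0.96, 0.73 and 0.64 against 0.69, 0.83 and 0.90, a difference of 0.03 (SE 0.19, adjusted p = 0.951). Ndufab1, the mitochondrial acyl carrier protein, differed by -0.03 (SE 0.16, adjusted p = 0.933). For both the groups overlapped. The lists for cholesterol synthesis, AMP-activated protein kinase, the unfolded protein response and bile acids had no named probe among those tested. Sod1 (superoxide dismutase) and Fmo2 (a flavin monooxygenase), from the antioxidant and drug metabolism lists, differed by 0.03 and 0.09. Mx2, an interferon-induced locus read through a noncoding RefSeq transcript, differed by 0.16 (adjusted p = 0.663).

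Noncoding RNAs that overlap or lie within 50 kb of genes of these lists were also read, by a rule added after the names were seen, and none of the 55 tested passed in limma, while 13 had an unadjusted p under 0.05 (7 higher, 6 lower), against 22.4% of named genes (8.71% higher, 13.7% lower). The smallest p-value belonged to Gm31535, beside the antioxidant gene Srxn1, at -0.74, -0.78 and -0.75 in the control pools against -0.26, -0.21 and -0.04 in the metformin pools (difference 0.59, SE 0.13, adjusted p = 0.0686). A second probe of Gm31535 differed by 0.11 (adjusted p = 0.818), and Gm31475, also beside Srxn1, by -0.52 (adjusted p = 0.577). Gm39813, beside Gpd2, a mitochondrial dehydrogenase of the glycerol phosphate shuttle that metformin is reported to inhibit, read 1.5, 1.66 and 1.61 against 2.00, 2.22 and 2.31 (difference 0.59, adjusted p = 0.0838). Gm34315, beside the peroxisomal racemase gene Amacr, differed by 0.59 (adjusted p = 0.0839), and Gm33424, beside the clock-linked repressor gene Nfil3, by -0.93 (adjusted p = 0.115). Over 10 neighbours of complex I genes the median difference was 0.128 (7 higher, 3 lower), over 10 neighbours of lipogenesis genes -0.07 (3 higher, 7 lower) and over 8 neighbours of clock genes -0.053 (2 higher, 6 lower). A neighbour's level says nothing by itself about the coding gene beside it.

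Against the same controls, the high fat diet pools given saline passed at 37 of the 60074 probes (0.0616%). Both comparisons use the 3 control pools, so their values are set side by side only. For Gm39094 the mean was 0.50 ± 0.20 with chow, 0.98 ± 0.26 with high fat diet and 1.94 ± 0.15 with metformin (SD, n = 3 each). Zmynd8 stood at -2.75 ± 0.08, -2.33 ± 0.55 and -1.16 ± 0.38, and Chaserr at -3.89 ± 0.10, -2.89 ± 0.33 and -2.33 ± 0.30. Gm32342 went from 2.40 ± 0.36 with chow to -0.13 ± 0.35 with high fat diet and 0.20 ± 0.99 with metformin, and Gm35393 from 6.16 ± 0.14 to 4.99 ± 1.90 and 1.00 ± 1.52. None of the 29 named transcripts passed between metformin and high fat diet in limma (adjusted p 0.391 to 0.99), with differences of 0.96 (SE 0.18, adjusted p = 0.391) for Gm39094 and -3.99 (SE 0.90, adjusted p = 0.481) for Gm35393.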

How the data were processed

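Liver RNA pools were read on single-colour Agilent arrays. Per the file headers, the authors extracted spots with Agilent Feature Extraction 11.5.1.1 on build mm9, whereas the submitters' processing notes give 10.7. The deposited processed signal is an intensity that is already background-subtracted. The deposited series table holds log2 values equal to that signal less 1 constant per array within 0.01.

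Outlier spots (73 to 192 per array) were removed, log2 signals averaged per probe, and each array's 75th percentile subtracted, which gave 97836 probes. Of these, 60126 were above background on at least 3 of the 6 arrays, and 52 were dropped for a missing value. The fit used limma 3.58.1 in R 4.3.3 over all 9 arrays with 1 mean per group (6 residual, 3.98 prior degrees of freedom), and the script was tested on simulated data. P-values measure the spread between pools.

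Gene names came from RefSeq accessions (4658 probes), RIKEN clone identifiers (1212) or the identifier itself (13), and the brightest probe stood for a gene. Named were all named genes that passed, the 5 largest unnamed changes each way above background on all 6 arrays, the 2 smallest p-values of each list, and 9 genes whatever their values. Members and lists were chosen with earlier results of these data known. Alternatives covered background, normalization, filter, slide, replicate number, prior, left-out pools and the series table. Normexp used the median spot signal, since mean signals were not among the columns used here. Values of some genes are not reported here.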

Additional observations from a re-analysis of the deposited data

How the results depend on the processing

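As reported, 485 probes passed between metformin and control. The count lay within 1.5 times of this under normexp (613), quantile normalization (533), a filter on all 6 arrays (550), a filter on 3 of 9 arrays (339), the 6 arrays alone (592) and the series table (440). Higher and lower probes numbered 306 and 307 under normexp and 267 and 266 under quantile normalization, against 200 and 285 as reported. With the filter on all 6 arrays they numbered 260 and 290. With no filter on dim probes 96 passed, with slide as a fixed block 0 (2550 at an unadjusted limma p under 0.05), with slide as a random block 8636 (3620 higher, 5016 lower; consensus correlation -0.172), and with a trended, robust prior 1246. Leaving out 1 pool gave 7 to 3131. In the 6 arrays alone without control replicate 1, an alternative chosen after seeing the data, 3500 passed. The cause of these shifts was not tested. Since no slide held both groups, the random block cannot separate slide from group, and its larger count does not show that the result withstands slide. Same-numbered pools did not deviate together (correlations -0.101 to 0.12). No pairing by number was seen, though correlations over all probes cannot exclude one. With the replicate block 326 probes passed, 219 of them among the 485, and 18 of the 29 named transcripts. Of the 29, 17 passed under normexp, 26 under quantile normalization, 9 without a filter and 24 under the trended prior, and none of the 29 differences changed sign under any alternative fitted. Under normexp 20 of the 29 shrank by over 1.5 times (median ratio to the reported difference 0.48), among them all 16 not above background on all 6 arrays; Chaserr, 1700040G22Rik, Gm38830 and Gm39806 read 0.54, -0.92, -0.35 and -0.19 against 1.56, -3.16, -1.84 and -1.12. With slide as a fixed block 4 of the 29 shrank so, Gm35393 to -2.45. Under normexp the difference of Rian was -0.86 (adjusted p = 0.0459) against -2.01, and Rian also passed with slide as a random block, with the trended prior and without metformin replicate 1. Mirt2 passed with slide as a random block (-1.44), with the trended prior (-1.53), without control replicate 1 (-1.74) and in the 6 arrays alone without that pool (-1.74). The median difference of the known noncoding RNAs was 0.22 with slide as a fixed block, against -0.13 as reported, and that of the imprinted ones -0.8 without control replicate 1, also in the 6 arrays alone, against -0.44; that of the small nucleolar RNA host genes was -0.72 with slide as a fixed block, against -0.34. Precision is limited by having 3 arrays per group, and dim probes give bounds only.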
